A study of Mus musculus with 6 samples.

Results

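The 10 genes described here, Pecam1, Cdh5, Tek, Tie1, Emcn, Esam, Egfl7, Eng, Plvap and Sox17, are widely used markers of vascular endothelium, and were read by gene symbol in a table of 45777 mouse genes. All 10 were present and all 10 passed the filter on low counts that left 25073 genes for testing. The tissue was testis of wild-type (WT) mice after 16 weeks on a liquid diet, labelled Ethanol-fed or Control-fed, with 3 libraries per diet. The diet, LDC, was given at 10 ml per animal per day, and all animals first took the control form of it for 5 days. The sources used here give no strain, age or ethanol dose, and no label ties each library to its own animal. The p-values therefore reflect the spread among these 6 libraries alone, and that spread may be technical.

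Endothelial cells line the vessels that run through the interstitium between the seminiferous tubules, and bring hormones, oxygen and nutrients to Leydig cells and tubules. They hold together through adherens and tight junctions, and their survival and quiescence depend on the angiopoietin receptor TEK (TIE2), on VEGF receptors and on BMP signals that pass through the co-receptor endoglin. Mouse testis capillaries are known for a continuous wall without the fenestrae that capillaries of other endocrine organs have. In whole tissue, fewer endothelial cells and less RNA per cell cannot be told apart.

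The markers were expressed at low levels and did not move as a block between the diets. Cdh5, Esam and Pecam1, all adhesion molecules of endothelial contacts, were higher in each ethanol library than in each control library, while Emcn and Sox17 were lower in each. Eng, Tek, Egfl7, Tie1 and Plvap overlapped between the diets. The 10 log2 fold changes ran from -0.52 for Emcn to 0.44 for Cdh5 with a median of 0.051, where the median over all tested genes was 0.0065 and the 5th and 95th percentiles were -0.40 and 0.50. By the quasi-likelihood test of edgeR, Benjamini-Hochberg adjusted over all genes, 0 of the 10 passed an adjusted p of 0.05, against a background of 0% of all genes (0 of 25073); limma-voom also called 0 of the 10, and DESeq2 0 of the 8 it adjusted, giving Emcn and Plvap no adjusted p.

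At an unadjusted p under 0.05, edgeR had 1 member higher, Cdh5, and 1 lower, Emcn, where 7.45% of all tested genes were higher and 5.89% lower by that rule. Libraries of the diets did not overlap for 5 of 10 members, 3 higher and 2 lower, beside 18.8% of all tested genes, 9.76% higher and 9.01% lower. Of the members, 6 had a log2 fold change above 0, beside 51.5% of all tested genes. DESeq2, which called 1.11% of the genes it adjusted as higher and 0.695% as lower, put 1 member under an unadjusted p of 0.05, Cdh5.

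**Figure D1:**
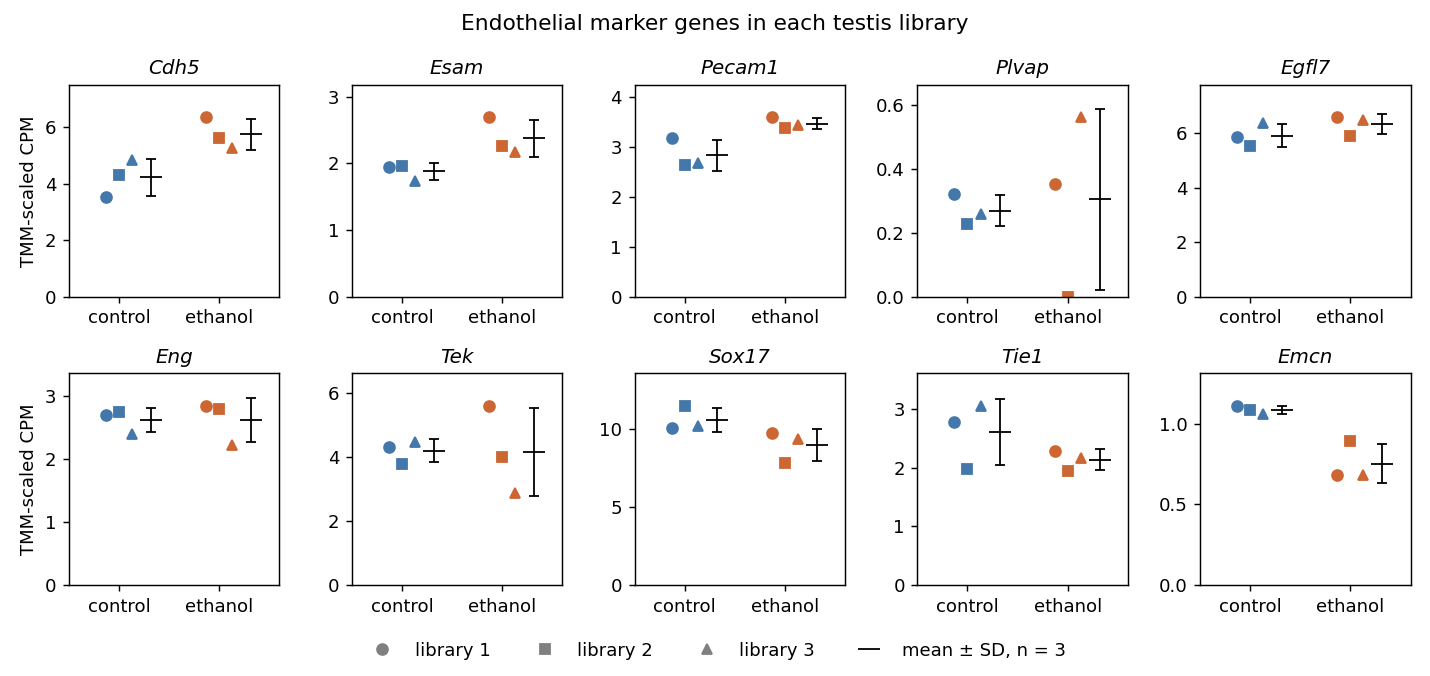
TMM-scaled read counts scaled to library size (CPM, vertical axes from 0) of the 10 endothelial marker genes in the 3 control (blue) and 3 ethanol (orange) libraries, ordered by fold change, with the mean and SD of each diet beside the points. Cdh5, Esam and Pecam1 separate upward and Sox17 and Emcn downward, while Plvap spans 0 to 0.560 CPM within the ethanol diet.

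Per transcript length, on the TPM scale, the members fell into a high pair, a middle group and 1 low gene. Egfl7 was the most abundant, with a mean of 8.57 TPM over the 6 libraries, followed by Sox17 at 5.59 TPM, and both lay above all other members in each library. Cdh5 (2.40 TPM), Esam (2.20), Pecam1 (1.82), Tek (1.68), Eng (1.45), Emcn (1.19) and Tie1 (1.16) came next. Of the neighbours in that order, Cdh5 was above Esam in 5 of 6 libraries, Pecam1 above Tek in 4, Tek above Eng in 4, Eng above Emcn in 5 and Emcn above Tie1 in 3, so the order within this group was not the same in every library. Plvap was last at 0.243 TPM, below Tie1 in all 6 libraries. Most members lay in the lower part of the tested transcriptome: Cdh5 exceeded 35.7% of tested genes in mean TPM, Tie1 23.5% and Plvap 4.73%, whereas Egfl7 exceeded 58.3%.

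**Figure D2:**
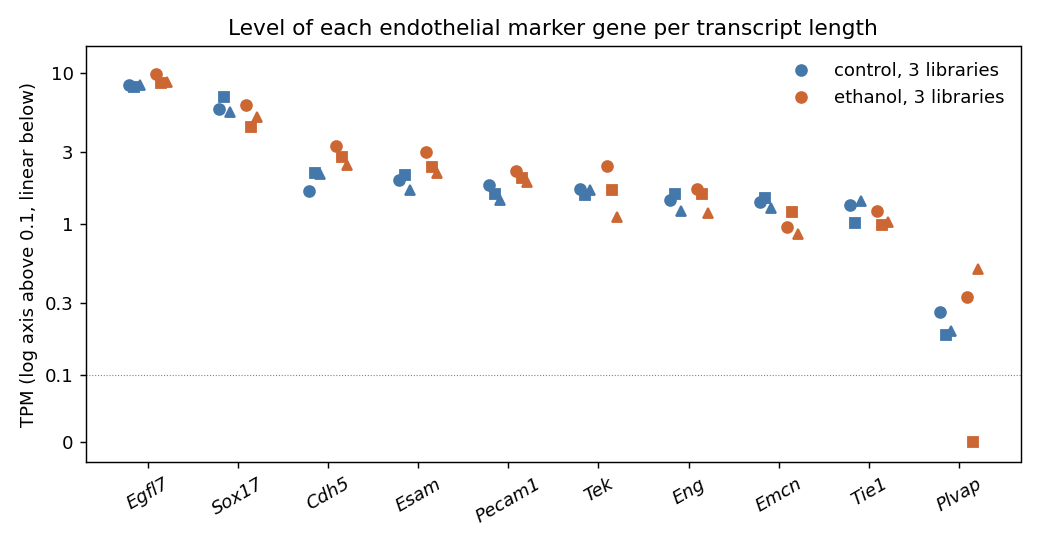
Level of each member in TPM, the deposited value scaled to transcript length, on an axis that is logarithmic above 0.1 and linear below, for 3 control (blue) and 3 ethanol (orange) libraries. Egfl7 and Sox17 stand above the rest in every library, and Plvap lies lowest, with ethanol library 2 at 0.

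Among the junction genes, Cdh5 encodes VE-cadherin, the cadherin of endothelial adherens junctions (Gene ID 12562; chromosome 8, 104101613 to 104144504 on GRCm38.p6, plus strand). It was at 3.53, 4.31 and 4.82 CPM in control libraries 1, 2 and 3 and at 6.35, 5.60 and 5.26 CPM in ethanol libraries 1, 2 and 3. The diets did not overlap, and ethanol library 1 stood highest. The log2 fold change of 0.44 (SE 0.15) had an unadjusted p of 0.0113 and an edgeR adjusted p of 0.238. Control library 1 was the lowest of the 6, and without it the log2 fold change was 0.32 with an unadjusted p of 0.0648 by edgeR.

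Pecam1 encodes CD31, an immunoglobulin-family adhesion molecule of endothelial contacts that platelets and leukocytes also carry (Gene ID 18613; chromosome 11, 106654213 to 106715281, minus strand). Its values were 3.18, 2.64 and 2.68 CPM on the control diet and 3.60, 3.38 and 3.44 CPM on ethanol. Control library 1 came close to the ethanol libraries, and the log2 fold change was 0.29 (SE 0.15, adjusted p = 0.423 by edgeR). Esam, an adhesion molecule of endothelial tight junctions and platelets (Gene ID 69524; chromosome 9, 37528089 to 37538319, plus strand), was at 1.94, 1.96 and 1.74 CPM on the control diet and 2.69, 2.26 and 2.17 CPM on ethanol. Its log2 fold change was 0.33 (SE 0.17, adjusted p = 0.430 by edgeR), with ethanol library 1 farthest from the controls.

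Emcn encodes endomucin, a sialomucin on the luminal face of capillary and venous endothelium (Gene ID 59308; chromosome 3, 137341062 to 137431069, plus strand). It was at 1.11, 1.08 and 1.06 CPM on the control diet and at 0.680, 0.892 and 0.682 CPM on ethanol, a log2 fold change of -0.52 (SE 0.23) with an unadjusted p of 0.0461 and an edgeR adjusted p of 0.364. All 3 ethanol libraries were below the controls. These values rest on 52, 48 and 45 reads in controls and 27, 39 and 28 with ethanol. The control libraries differed by a coefficient of variation of 2.45%, less than the 14.4% that counting alone gives at this depth. The unadjusted edgeR p was above 0.05 when any library other than ethanol library 2 was left out, from 0.0718 to 0.113, and was 0.127 with DESeq2. A long noncoding RNA, Gm38650, lies on the opposite strand within the span of Emcn and had 58 to 88 reads per library with a log2 fold change of -0.07 (SE 0.20).

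Within a library, the ratio of Cdh5 to Emcn, the members at the ends of the range and chosen for it, was 3.17, 3.98 and 4.56 in controls and 9.33, 6.28 and 7.71 with ethanol. No test is given for this ratio, since its direction follows from the choice.

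The 3 receptors did not separate the diets. Tek encodes TIE2, the receptor tyrosine kinase for angiopoietins (Gene ID 21687; chromosome 4, 94739086 to 94874976, plus strand). It was at 4.32, 3.79 and 4.47 CPM on the control diet and at 5.59, 4.002 and 2.88 CPM in ethanol libraries 1, 2 and 3. The ethanol diet thus held both the highest and the lowest library, with a coefficient of variation of 32.8% against 8.54% in controls and 7.63% from counting in the ethanol libraries. The log2 fold change of -0.014 (SE 0.21, adjusted p = 0.986 by edgeR) became 0.18 when ethanol library 3 was left out and -0.28 when library 1 was.

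Tie1 encodes the related receptor that pairs with TIE2 and has no well-established ligand of its own (Gene ID 21846; chromosome 4, 118471191 to 118489849, minus strand). It was at 2.78, 1.98 and 3.06 CPM on the control diet and 2.29, 1.94 and 2.17 CPM on ethanol. Control library 2 lay among the ethanol libraries and the other controls lay above them. The log2 fold change was -0.29 (SE 0.19, adjusted p = 0.553 by edgeR), and without control library 2 it was -0.45, with an unadjusted p of 0.0272 and an adjusted p of 0.288. Without control library 3 it was -0.17, with an unadjusted p of 0.435, and the adjusted p over all alternatives ran from 0.288 to 0.828 by edgeR and the other tests.

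Eng encodes endoglin, a co-receptor for BMP9 and TGF-beta ligands (Gene ID 13805; chromosome 2, 32646595 to 32682669, plus strand). Its values of 2.69, 2.75 and 2.40 CPM on the control diet and 2.85, 2.79 and 2.22 CPM on ethanol overlapped, with library 3 the lowest in both diets. The log2 fold change was 0.0015 (SE 0.16, adjusted p = 0.998 by edgeR). The last 61 bases of Eng overlap the end of Fpgs on the other strand, which had 944 to 1225 reads per library against 91 to 126 for Eng. The strand setting of the counting is not known, so reads from that overlap could stand in either count.

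Upstream sequence of the receptor genes is shown because these members share a role and all 3 were in the promoter table, and no measurement here bears on it directly. The 250 bases before each RefSeq start site on GRCm38.p6 are written 5′ to 3′ on the gene's own strand, and capitals mark matches on either strand to GGAAGT, a core bound by ETS-family factors such as ERG and FLI1, which act broadly in endothelium.
Tek, chr4:94739039-94739288, plus strand: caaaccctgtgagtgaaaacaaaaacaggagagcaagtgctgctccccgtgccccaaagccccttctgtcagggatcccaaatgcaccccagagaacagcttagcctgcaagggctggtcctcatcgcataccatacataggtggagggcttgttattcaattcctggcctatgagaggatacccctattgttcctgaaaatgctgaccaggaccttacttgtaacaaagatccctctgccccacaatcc
Tie1, chr4:118489850-118490099, minus strand: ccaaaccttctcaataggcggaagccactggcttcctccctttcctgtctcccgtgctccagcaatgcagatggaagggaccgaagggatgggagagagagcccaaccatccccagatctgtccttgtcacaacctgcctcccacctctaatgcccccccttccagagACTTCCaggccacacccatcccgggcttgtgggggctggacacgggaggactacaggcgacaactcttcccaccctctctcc
Eng, chr2:32646345-32646594, plus strand: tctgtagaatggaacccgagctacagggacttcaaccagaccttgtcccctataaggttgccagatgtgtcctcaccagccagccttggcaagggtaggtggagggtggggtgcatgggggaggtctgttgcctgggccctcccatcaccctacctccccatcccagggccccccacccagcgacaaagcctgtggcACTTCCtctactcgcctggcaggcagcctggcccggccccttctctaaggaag
Tie1 and Eng each held 1 match, beginning 82 and 53 bases before the start, and Tek held 0 in this window. The 5 members in the promoter table had 7 starts, of which 4 (57.1%, in Egfl7, Eng and Tie1) held a match within 300 bases, whereas 23.8% of all 32851 promoters of that length had one. For the KLF motif CCACCC it was 3 of 7 starts (42.9%) against 31.5% of promoters, for the GATA motif AGATAA 1 of 7 (14.3%, Tek) against 11.2%, and for the SOX motif ACAATG 0 of 7 against 12.6%. With 7 starts these shares are a description. The motifs do not overlap one another, and a match is a stretch of letters and not a shown binding site.

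Egfl7 encodes a secreted protein that endothelial cells lay down around vessels, and its gene carries the endothelial microRNA miR-126 (Gene ID 353156; chromosome 2, 26581083 to 26592682, plus strand). Egfl7 was at 5.86, 5.52 and 6.37 CPM on the control diet and 6.60, 5.92 and 6.51 CPM on ethanol. Control library 3 lay within the ethanol range, and the log2 fold change was 0.10 (SE 0.12, adjusted p = 0.768 by edgeR). On the TPM scale the diets did not overlap, at 7.97 to 8.24 TPM in controls and 8.50 to 9.82 TPM with ethanol. The median log2 fold change over all tested genes was also higher on that scale, at 0.044 on log2(TPM + 1) against 0.0065.

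The hosted microRNA is shown because its hairpin lies inside the Egfl7 span, at 26591357 to 26591429, with the seed (bases 2 to 8) in capitals.
mmu-miR-126a-3p, chr2:26591402-26591423, plus strand: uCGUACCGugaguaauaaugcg
The table listed 0 to 3 reads per library for Mir126a, at or under the 3 counts that a count of 0 allows, so no level is given for it from these total RNA libraries.

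Plvap encodes the protein of the diaphragms that span endothelial fenestrae and caveolae (Gene ID 84094; chromosome 8, 71497753 to 71511806, minus strand). It had 15, 10 and 11 reads in controls and 14, 0 and 23 reads in ethanol libraries 1, 2 and 3, or 0.321, 0.225 and 0.259 CPM against 0.353, 0 and 0.560 CPM. The ethanol libraries lay on both sides of the controls. The log2 fold change of 0.16 (SE 0.74, adjusted p = 0.951 by edgeR) moved to 0.76 when ethanol library 2 was left out and to -0.65 when library 3 was, so its direction changed with the library left out. Its span overlaps that of Gtpbp3 on the other strand by 1872 bases, with 207 to 268 reads per library for Gtpbp3.

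Sox17 encodes a SOX transcription factor of arterial endothelium, and is also known to be transcribed in testis germ cells, in a full-length and a shortened form that one gene count cannot separate (Gene ID 20671; chromosome 1, 4490928 to 4497426, minus strand). It was at 10.1, 11.5 and 10.2 CPM on the control diet and 9.80, 7.82 and 9.36 CPM on ethanol, a log2 fold change of -0.24 (SE 0.12, adjusted p = 0.418 by edgeR). All ethanol libraries were below the controls, by the least for ethanol library 1 and the most for ethanol library 2. When library 2 was left out the log2 fold change was -0.15, with an unadjusted edgeR p of 0.251. On the TPM scale the diets overlapped, at 5.49 to 6.84 TPM in controls and 4.34 to 6.13 TPM with ethanol. In mean TPM over all 6 libraries Sox17, at 5.59, stood above its endothelial relatives Sox18, at 0.992, and Sox7, at 0.483, and above the endothelial factor Erg, at 0.620. How much of the Sox17 count came from endothelium was not tested.

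**Figure D3:**
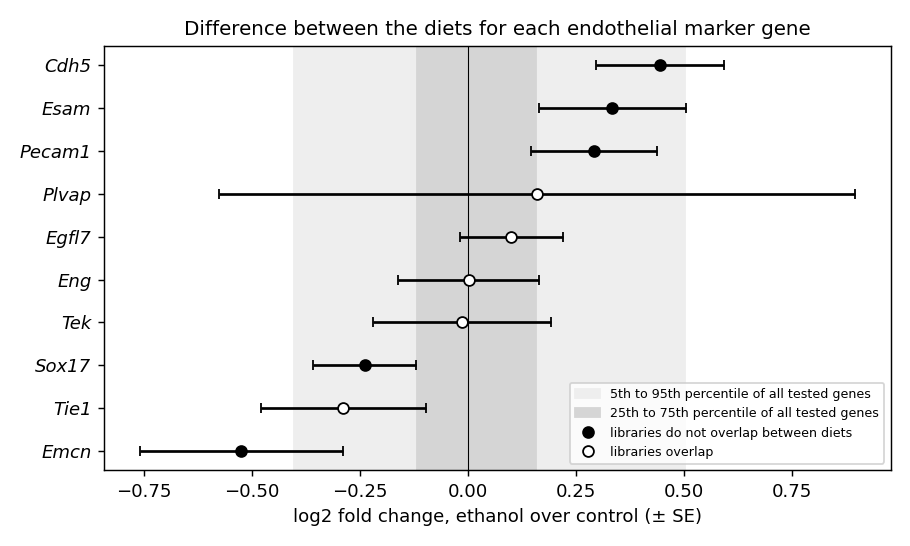
Log2 fold change of ethanol over control with its SE for each member, with grey bands for the middle of all tested genes. Filled points, for members whose libraries did not overlap, lie at both ends of the range, and Emcn is the member outside the band from -0.40 to 0.50.

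The libraries did not order all members in the same way. Ethanol library 1 was the highest of the 6 for 6 members, Pecam1, Cdh5, Tek, Esam, Egfl7 and Eng, and the lowest for Emcn. After each gene was centred on its own mean log2 CPM, the median of the members ran only from -0.11 in control library 2 to 0.16 in ethanol library 1. Among the 100 genes nearest to each member by mean absolute difference over the 6 libraries, 0 of the 10 members found another member. Most members lay under the 5 CPM asked of the other candidates, where counting noise alone can keep 2 patterns apart. This 0 therefore cannot show whether the members moved together. The 6 genes nearest to the members' median pattern, out of 6968 with at least 5 CPM and a range of at least 0.3 log2 units, were Plce1, Dusp12, Aox3, Psme2, Elmo2 and Gm32458, at mean absolute differences of 0.033 to 0.041 log2 units, and 0 of them belonged to a list used here.

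Other endothelial markers lay mostly above 0, by small amounts. Of 25 such genes 24 were tested and 20 were above 0, beside 51.5% of all tested genes. Their median log2 fold change was 0.15, beside 0.0065 for all tested genes. At an unadjusted edgeR p under 0.05, 2 were higher, the adaptor gene She (0.70, SE 0.27) and the sialomucin gene Podxl (0.34, SE 0.14), and 1 lower, the transcription factor gene Sox18 (-0.58, SE 0.24). By that rule 7.45% of all tested genes were higher and 5.89% lower. Sox18 was at 1.02 ± 0.14 CPM on the control diet and 0.681 ± 0.044 CPM on ethanol (SD, n = 3), without overlap. Of well-known genes of the group, the VEGF receptor gene Kdr (0.16, SE 0.14), the tight junction gene Cldn5 (0.14, SE 0.14) and Vwf (0.02, SE 0.11) overlapped between the diets. Another VEGF receptor gene, Flt1 (0.28, SE 0.13), was higher in all ethanol libraries. By edgeR 0 of the 24 passed over all genes.

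Around the TIE receptors, 5 of 7 angiopoietin pathway genes were above 0 with a median of 0.19, but the ligand genes went both ways. Angpt1, the activating ligand of TIE2, was at 0.767 ± 0.13 CPM on the control diet and 0.529 ± 0.044 CPM on ethanol, a log2 fold change of -0.53 (SE 0.28, adjusted p = 0.444 by edgeR) without overlap. Angpt2, the context-dependent ligand, was at 3.02 ± 0.39 and 2.40 ± 0.36 CPM (-0.33, SE 0.17), with overlap, and Angpt4 at 0.41 (SE 0.33). Ptprb, which encodes the phosphatase VE-PTP that restrains TIE2, stood at 0.07 (SE 0.15). Svep1, a large matrix protein that binds TIE1, was higher in all ethanol libraries, at 5.61 ± 0.17 CPM on the control diet and 9.23 ± 1.70 CPM on ethanol, a log2 fold change of 0.72 (SE 0.14, adjusted p = 0.145 by edgeR). DESeq2 called Svep1 (adjusted p = 0.00302), and its adjusted p over the alternatives ran from 0.00302 to 0.424. Svep1 is not confined to endothelium and is made by stromal cells as well.

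Among VEGF ligands and receptors, 8 of 10 were above 0 (51.5% of all tested genes) with a median of 0.20. By edgeR 1 was higher at an unadjusted p under 0.05, beside 7.45% of all tested genes. For 4 the ethanol libraries were all above the controls, beside 9.76% of all tested genes. Vegfa, the main ligand, was at 2.40 ± 0.31 CPM on the control diet and 3.53 ± 0.37 CPM on ethanol, a log2 fold change of 0.56 (SE 0.16, adjusted p = 0.193 by edgeR). The receptor genes Flt1 and Flt4 had log2 fold changes of 0.28 (SE 0.13) and 0.19 (SE 0.10), and the co-receptor gene Nrp2 0.20 (SE 0.11).

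On the endoglin side, 15 of 17 BMP and TGF-beta pathway genes were tested, 11 were above 0 and the median was 0.17. Bmpr2, the type II BMP receptor gene, was at 25.6 ± 3.91 CPM on the control diet and 32.7 ± 3.37 CPM on ethanol, with overlap between the diets (0.35, SE 0.11, adjusted p = 0.223 by edgeR), and was the 1 gene with an unadjusted p under 0.05 on the higher side. On the lower side it was Smad1, a transducer of BMP signals, at -0.21 (SE 0.10). Over all tested genes 7.45% were higher and 5.89% lower by that rule with edgeR. Tgfb2 stood at 0.47 (SE 0.25), the endoglin partner Acvrl1 at 0.27 (SE 0.21) and the BMP target Id1 at -0.01 (SE 0.22).

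Partners of the endothelial junctions lay mostly above 0. Of 13 genes, 11 were above 0 (51.5% of all tested genes) with a median of 0.14, and 4 had an unadjusted p under 0.05, all higher (7.45% of all tested genes). They included F11r, with a log2 fold change of 0.34 (SE 0.10, adjusted p = 0.207 by edgeR), Cgn at 0.22 (SE 0.08) and Ocln at 0.32 (SE 0.14), which are also genes of the Sertoli cell barrier. Caveolae and capillary transport genes had 9 of 11 tested members above 0 and a median of 0.26. The fatty acid transporter gene Cd36 was at 21.5 ± 4.04 CPM on the control diet and 35.5 ± 8.51 CPM on ethanol (0.73, SE 0.17, adjusted p = 0.153 by edgeR). Fabp4 stood at 2.64 (SE 0.75), with overlap, and at 1.28 when ethanol library 1 was left out, and the caveola gene Cavin1 at 0.36 (SE 0.14). Cd36 and Fabp4 are also abundant in adipocytes.

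Vessel subtype genes and transcription factors were mixed. Notch and arterial genes had 10 of 15 above 0 and a median of 0.07. The smallest p in the list were those of the arterial Notch ligand gene Dll4, at 0.669 ± 0.11 and 1.05 ± 0.24 CPM (0.66, SE 0.27), the chemokine receptor gene Cxcr4 (0.37, SE 0.15) and Notch1 (0.23, SE 0.15). Venous and lymphatic genes had 8 of 11 tested above 0 and a median of 0.11. The venous adhesion genes Sele, at 2.41 ± 0.17 and 1.68 ± 0.20 CPM (-0.52, SE 0.17), and Selp, at 0.845 ± 0.27 and 0.510 ± 0.13 CPM (-0.74, SE 0.33), were lower without overlap, and Reln was higher (0.42, SE 0.10). Of 18 tested endothelial transcription factor genes 6 were above 0, with a median of -0.04. Klf4 was at 93.2 ± 3.85 CPM on the control diet and 77.9 ± 2.25 CPM on ethanol (-0.26, SE 0.06, adjusted p = 0.153 by edgeR), and Ets2 stood at 0.47 (SE 0.19). Klf4 is also known to be expressed in round spermatids. Over the 9 vascular groups 115 different genes were tested, of which edgeR called 0 over all genes, with 21 (18.3%) at an unadjusted p under 0.05, beside 13.3% of all tested genes in either direction. DESeq2 called 3, Svep1, Reln and Klf4, where it called 1.11% of all genes it adjusted as higher and 0.695% as lower.

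**Figure D4:**
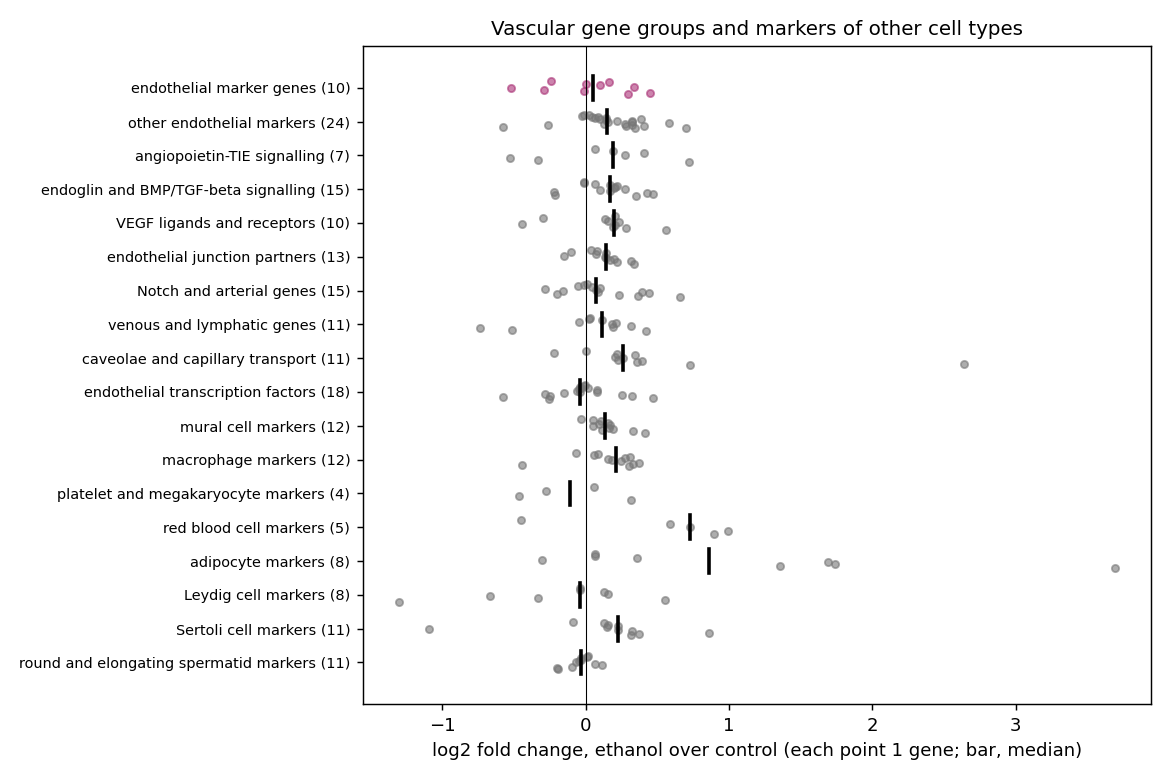
Log2 fold change of ethanol over control for each tested gene (points) of the endothelial marker genes, 9 further vascular groups and markers of other cell types, with the number tested in brackets and a bar at the median. The vascular medians lie between -0.04 and 0.26, while those of red blood cell and adipocyte markers are 0.73 and 0.86.

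Markers of other cells that share the vessel and interstitium were read in the same libraries. For mural cells, which wrap vessels, 11 of 12 markers were above 0. Their summed level was 68.2 to 76.1 TPM in controls and 79.0 to 89.3 TPM with ethanol. Acta2 and Myh11, at means of 32.5 and 12.1 TPM, were the largest parts of this sum. In testis such contractile genes also mark the peritubular myoid cells around tubules, so the sum does not measure vessel-wrapping cells alone. Mcam, which endothelium also expresses, had a log2 fold change of 0.42 (SE 0.09), with Rgs5 at 0.33 (SE 0.16) and Acta2 at 0.11 (SE 0.07). For macrophages, 10 of 12 were above 0, with sums of 92.8 to 107.8 and 109.1 to 120.4 TPM, Mrc1 at 0.30 (SE 0.07), Lyz2 at 0.33 (SE 0.09) and C1qa at -0.44 (SE 0.12). The other C1q genes of the list, C1qb (0.18, SE 0.12) and C1qc (0.24, SE 0.14), lay above 0, with overlap. The sum over the 10 endothelial markers was 24.7 to 26.4 TPM in controls and 24.8 to 31.0 TPM with ethanol, of which Egfl7 and Sox17 together took 50.6% to 56.0% in a library. The diets overlapped in this sum. They did not in the sum over the 25 other endothelial markers, at 44.8 to 48.3 TPM in controls and 48.9 to 57.2 TPM with ethanol, nor in the mural and macrophage sums. For the other endothelial markers, control library 2 and ethanol library 3 nearly met. On log2(TPM + 1) the median log2 fold change over all tested genes was 0.044, against 0.0065 on TMM-scaled counts. How far that shift enters the TPM sums of any list was not tested.

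Red blood cell markers separated the diets and adipocyte markers did not. Red blood cell genes summed to 40.3 to 84.5 TPM in controls and 110.1 to 133.1 TPM with ethanol, with 4 of 5 tested genes higher without overlap, the beta-globin genes Hbb-bs (0.99, SE 0.25) and Hbb-bt (0.89, SE 0.21) and the alpha-globin genes Hba-a2 (0.73, SE 0.26) and Hba-a1 (0.59, SE 0.24). Each of these pairs holds closely similar copies whose reads may be split between them. Over all tested genes, 9.76% were higher without overlap. Platelet genes, which bear on Pecam1 and Esam, summed to 8.57 to 9.76 TPM in controls and 8.98 to 11.1 TPM with ethanol, with overlap. Ppbp and Gp9 had 0 reads in all 6 libraries, whereas Gp1bb, at a mean of 4.81 TPM, and Pf4, at 3.34 TPM, stood above Pecam1 and Esam. Of 4 tested platelet genes 2 were above 0, with log2 fold changes of 0.31 (SE 0.13) for Gp1bb, -0.47 (SE 0.25) for Gp5 and -0.28 (SE 0.26) for Pf4. Adipocyte genes summed to 65.6 TPM in ethanol library 1 and 23.6 to 33.5 TPM in the other 5 libraries. All 8 adipocyte genes overlapped between the diets and 7 were above 0. The smallest p were those of Cfd (3.69, SE 1.09), Lpl (1.35, SE 0.45) and Cidec (1.74, SE 0.64), which moved to 2.24, 0.49 and 0.48 when ethanol library 1 was left out. Cfd was at 0 in control libraries 1 and 2, so its fold change rests on control library 3 and no value is given without it. Lep stood at 1.69 (SE 0.74) and Plin1 at 0.36 (SE 0.24), while Adipoq, the most abundant of the list, stood at 0.07 (SE 0.14), Pparg at 0.06 (SE 0.22) and Retn at -0.31 (SE 0.19). The part of blood or fat in the endothelial values was not tested. When ethanol library 1 was left out, the log2 fold changes were 0.37 for Cdh5, 0.27 for Pecam1, 0.23 for Esam, -0.46 for Emcn and -0.30 for Sox17.

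Sertoli, Leydig and germ cell markers were read for comparison, and edgeR called 0 genes of these or the preceding cell types over all genes, where DESeq2 called Mcam, Mrc1, Hbb-bt, Cyp11a1, Hsd3b6, Cst9, Cst12 and Kitl, and edgeR with the replicate block called Cyp11a1 (adjusted p = 0.00126). DESeq2 called 1.11% of all genes it adjusted as higher and 0.695% as lower. Sertoli markers had 9 of 11 above 0 and a median of 0.22, and Cst9 (0.32, SE 0.07), Cst12 (0.37, SE 0.08) and Rhox8 (0.86, SE 0.21) had the smallest p. Their sums were 548.1 to 620.6 TPM in controls and 729.0 to 812.2 TPM with ethanol. Cst9 and Cst12, at means of 316.1 and 236.0 TPM, made up most of these sums. Amh went the other way, at -1.09 (SE 0.47) with an unadjusted p of 0.0385 by edgeR, on 6 to 33 reads per library. Leydig markers had 3 of 8 above 0, with Cyp11a1 at -1.30 (SE 0.24), Hsd17b3 at -0.33 (SE 0.09) and Hsd3b6 at 0.55 (SE 0.14). Spermatid markers, of cells that may contribute Sox17 reads, had 4 of 11 above 0 and a median of -0.03. Those of smallest p lay below 0, Spaca1 at -0.20 (SE 0.08), Izumo1 at -0.19 (SE 0.08) and Odf1 at -0.09 (SE 0.07). Above 0 were Tnp1 at 0.11 (SE 0.09), with overlap, and Akap4 at 0.06 (SE 0.05), higher in all ethanol libraries. Tssk2 and Tnp2 stood at 0.01 each (SE 0.08 and 0.12).

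**Figure D5:**
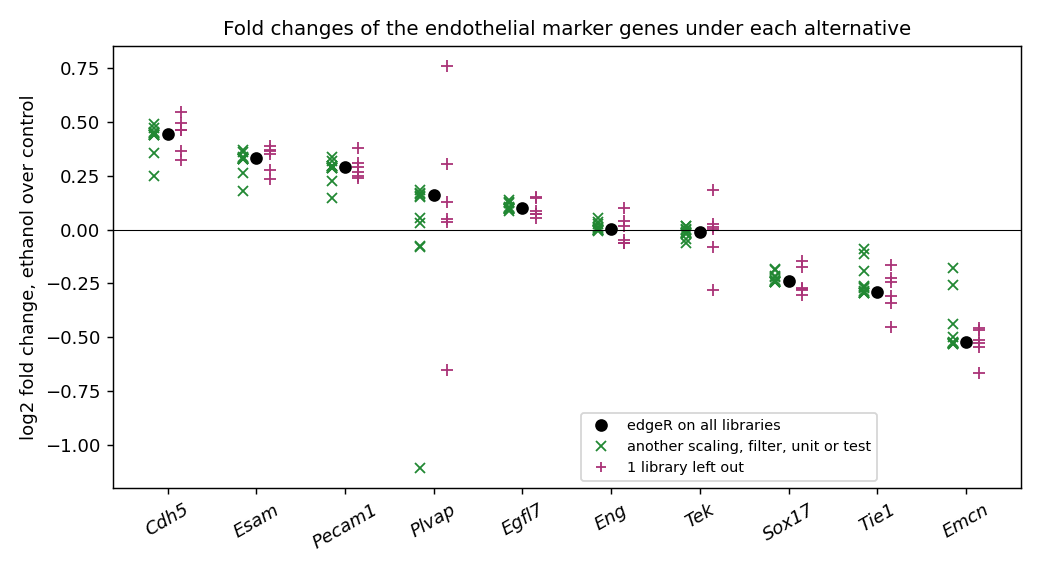
Log2 fold change of each member with edgeR on all libraries (black), under 11 other scalings, filters, units or tests (crosses) and with each of the 6 libraries left out (plus signs). The signs of Cdh5, Esam, Pecam1, Egfl7, Sox17, Tie1 and Emcn were the same in every fit shown, and those of Plvap, Eng and Tek were not.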

How the data were processed

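Testis RNA of 6 libraries, 3 per diet, was sequenced with a stranded total RNA kit after removal of ribosomal RNA, per the labels' protocols. The submitters' processing notes name HISAT2 and mm10; the sources used here do not give its version, the counting tool, the strand setting or the annotation release. The authors deposited whole-number read counts per gene, without normalization, and beside them FPKM and TPM that the authors computed per transcript length, per the file headers. Total counts ran from 38935654 to 47420249 per library. Each of the 15 library pairs differed beyond sampling noise (chi-square per gene of at least 7.67).

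Of 45777 genes, 25073 passed filterByExpr and were tested with edgeR 4.0.16 (R 4.3.3): TMM scaling, the quasi-likelihood F-test, no covariate, Benjamini-Hochberg adjustment over all tested genes, and a threshold of 0.05. CPM is TMM-scaled, and standard errors were derived from the F statistics. The procedure was tested on simulated data. Alternatives were RLE and upper-quartile factors, library totals alone, DESeq2 1.42.0, limma-voom (limma 3.58.1), a stricter filter (at least 1 CPM in 3 libraries) and none, limma-trend on log2(TPM + 1), log2(TPM + 0.1) and log2(FPKM + 1), the replicate number as a block, and each library left out in turn.

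The 10 members, the 17 other gene lists and the naming rule were chosen with earlier results of these data known. The rule named every member and the 3 genes of smallest p in each list, and the 6 genes whose pattern over the libraries was nearest to that of the members. Other genes named were chosen after their values were seen. Coordinates and promoter sequences came from RefSeq tables of GRCm38.p6, the assembly of mm10. All 10 members were found by Gene ID in the gene table, and 5 of them in the promoter table, with 7 start sites. Strands came from GENCODE M21.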

Additional observations from a re-analysis of the deposited data

How the results depend on the processing

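Over 17 alternatives, 0 members passed over all genes in any (DESeq2 gave Emcn and Plvap no adjusted p), and 7 of the 10 kept their direction throughout. Members above 0 numbered 4 to 7, and the members' median log2 fold change lay between -0.035 (limma-voom) and 0.087 (without ethanol library 3). Members whose libraries did not overlap numbered 4 or 5 in fits on all 6 libraries. They numbered 5 to 7 with 1 library left out, where fewer libraries separate more readily. The 18.8% of all tested genes without overlap is for the main fit, so it is no background for those counts. Genes called over the whole table, 0 in the main test, numbered 2 with upper-quartile factors, 2 with the filter of 1 CPM, 330 with DESeq2 (203 higher, 127 lower), 5 with limma-voom, 15 with the replicate block and 0 to 3 with 1 library left out. Members at an unadjusted p under 0.05, 2 in the main test, numbered 1 with library totals alone, DESeq2, log2(TPM + 0.1) and the replicate block, and 1 to 2 with 1 library left out. The cause of these differences was not tested.

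The sign of Tek turned with library totals alone (0.015), on log2(TPM + 1) (0.017) and on log2(TPM + 0.1) (0.0043), and it ran from -0.28 to 0.18 with 1 library left out. Eng turned with RLE factors (-0.0031), upper-quartile factors (-0.0024), DESeq2 (-0.0030), limma-voom (-0.0052) and the replicate block (-0.0020), and ran from -0.062 to 0.10 with 1 library left out. Plvap turned with limma-voom (-1.11), on log2(TPM + 0.1) (-0.077) and with the replicate block (-0.080), ran from -0.65 to 0.76 with 1 library left out, and was not tested under the filter of 1 CPM. Of the 72 other genes given with a log2 fold change and refitted, 56 of them named by the rule and 16 after their values were seen, 64 kept their direction in all fits. With 1 library left out, the ranges that crossed 0 were -0.042 to 0.0995 for Plce1, -0.051 to 0.087 for Elmo2, -0.070 to 0.19 for Adipoq, -0.14 to 0.26 for Pparg, -0.065 to 0.21 for Ptprb, -0.075 to 0.13 for Vwf, -0.22 to 0.0040 for Gm38650 and -0.16 to 0.13 for Id1. Gm38650 also turned on log2(TPM + 1) (0.0047) and log2(TPM + 0.1) (0.0063), and Id1 with library totals alone (0.013) and on the same TPM scales (0.019 and 0.026). DESeq2 called 11 of the 72 genes, where the main test called 0, and the replicate block called Cyp11a1 (adjusted p = 0.00126 by edgeR). Over all genes it adjusted, DESeq2 called 1.11% as higher and 0.695% as lower. Many of the 72 were named for a small p, so the 2 shares are not alike.

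The correlations of same-numbered deviations from the diet means were -0.143, 0.0286 and 0.417 over 13229 genes. Control libraries 1 and 2 each correlated best with an ethanol library of another number, and control library 3 with ethanol library 3. Deviations from a mean of 3 libraries depend on each other, so these values cannot decide whether the numbers pair the libraries. The replicate block left 0 members called. Depth limits Plvap and Emcn most, with at most 52 reads in any library.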
